A study of Mus musculus with 36 samples.

Results

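The growth medium of wild-type mouse embryonic stem cells (ESC) is compared here across 12 of the 36 RNA-seq libraries of a series on BOD1L, SETD1A and MLL2. The 12 were chosen by their titles: 6 libraries of wild-type ESC in 2i medium, which the labels call naive ESC, and 6 of wild-type ESC in serum medium, which the labels call cycling ESC. Cells in 2i were given PD0325901 and CT99021 on top of LIF, and cells in serum medium LIF and foetal calf serum (FCS). Each medium was sampled in 3 lines, named Bod1L, Mll2 and Setd1a after the genes the series removes from them, with 2 biological replicates per line and medium. The titles give tamoxifen for the knockout libraries and not for the wild-type ones. Each name was modelled as 1 line. The labels do not say whether its replicates were separate clones, and they give neither strain nor sex. The medium effects below are thus those of cells under 3 line names, and Y-linked genes set the replicates of the Setd1a line apart, as given below. Poly(A) RNA was sequenced in strand-specific libraries, and levels are in CPM, a gene's counts scaled to a common library total after TMM adjustment. The line was a covariate in the model, which was fitted with edgeR's quasi-likelihood test. A gene is called here when its Benjamini-Hochberg adjusted p over all 20964 genes tested was below 0.05, and a log2 fold change is 2i over FCS with its standard error. The p-values measure the spread between these 12 libraries.

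PD0325901 blocks MEK, the kinase that activates ERK, and CT99021 blocks GSK3, the kinase that marks beta-catenin for destruction. With LIF, which signals through STAT3, this pair holds ESC near the state of the early epiblast. Serum adds BMPs, lysophospholipids, retinol and other factors, and leaves ERK signalling to FGF4 that the cells make themselves.

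The libraries held 28314024 to 40591108 counts on genes in 2i and 30285629 to 39614149 in FCS. Genes of any pluripotent cell were present in all 12, with a summed level of 964 to 2169 CPM in 2i and 1269 to 1726 CPM in FCS over 5 markers. The 12 naive markers summed to 3665 to 4893 CPM in 2i and 1374 to 4060 CPM in FCS, and the label naive thus goes with the higher sums. The FCS value of 4060 CPM belongs to Mll2 replicate 1, and the next highest FCS library had 2307 CPM. The 8 feeder fibroblast markers summed to 3.05 to 9.43 CPM in 2i and 19.7 to 220 CPM in FCS, with the highest sum in FCS Bod1L replicate 1. Col1a1 had the highest mean of them in FCS (53.8 CPM), while Dcn (0.17 CPM) and Lum (0.02 CPM) were near 0 there. Twist1 had means of 1.70 CPM in 2i and 1.76 CPM in FCS. In FCS Mll2 replicate 1, Thy1 alone had 23.8 CPM. Whether feeder cells were present was not tested. In bulk RNA, fewer cells of a type and less RNA per cell cannot be told apart.

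Some libraries stood apart along whole chromosomes. In FCS Mll2 replicate 1, the median gene of the X chromosome was 0.73 higher on the log2 scale than the median of the FCS libraries, and that of chromosome 1 was 0.41 higher. X was also 0.29 higher in 2i Bod1L replicate 1. Chromosome 3 was 0.56 higher in 2i Mll2 replicate 1. Chromosomes 6 and 8 were each 0.31 to 0.36 higher in 2i Bod1L replicate 1 and FCS Bod1L replicate 2, and chromosome 11 was 0.26 to 0.34 higher in all 4 Setd1a libraries. Y-linked genes were detected in the Bod1L libraries of both media and were at most 0.414 CPM in 3 of the 4 Mll2 libraries and in replicate 1, but not replicate 2, of the Setd1a line. In FCS Mll2 replicate 1 they had 1.44 to 4.78 CPM, with Ddx3y at 4.78 CPM against 97.8 to 141 CPM in the Bod1L libraries. The part of these shifts in single genes was not tested, and counts, and medians not near 0, that move by over 1.5 times without FCS Mll2 replicate 1, FCS Bod1L replicate 1 or 2i Mll2 replicate 2 are given beside the results. With a whole line left out fewer libraries enter the fit and fewer genes are called, and some of the larger falls of group counts are given too.

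**Figure D1:**
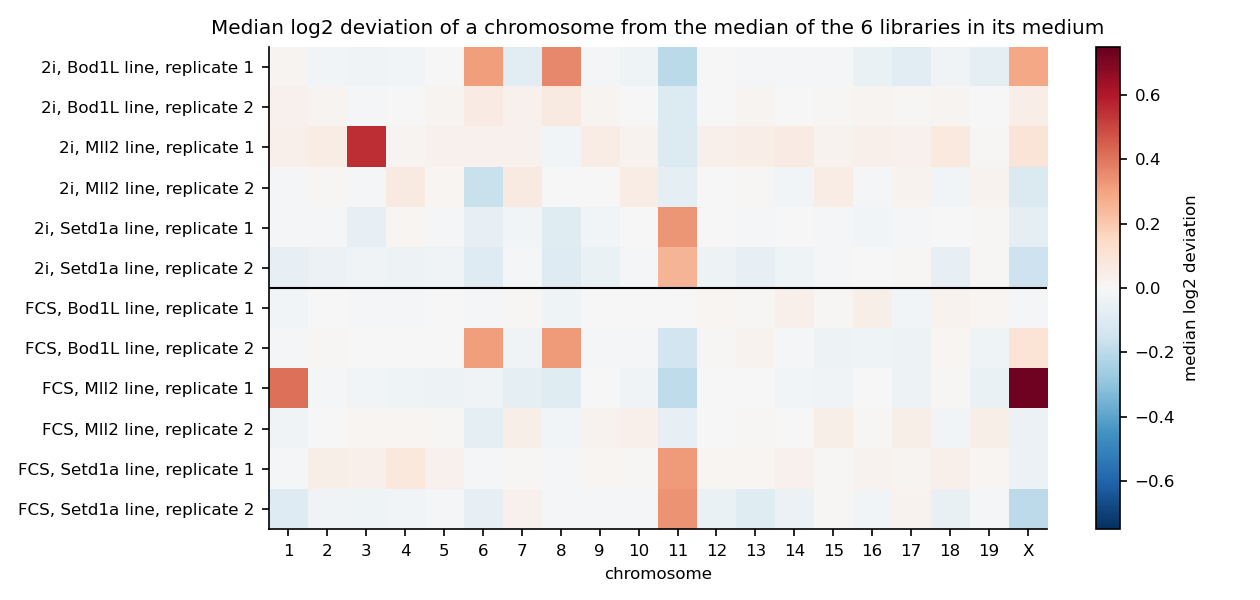
Heat map of chromosomes against the 12 libraries; colour gives the median, over the genes of a chromosome, of the log2 difference from the median of the 6 libraries in the same medium. X in FCS Mll2 replicate 1 (0.73) and chromosome 3 in 2i Mll2 replicate 1 (0.56) show the strongest colour, and chromosome 11 is raised in the 4 Setd1a libraries.

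Growth in 2i went with different levels of 26.0% of the genes tested. Of 20964 genes, 2852 (13.6%) were higher in 2i and 2606 (12.4%) were lower. The counts of called list members below are to be read beside these shares. With a log2 fold change of at least 1 in size, 1844 (8.80%) were higher and 2054 (9.80%) lower, and the median over all genes was 0.03. For 1157 genes (5.52%) every 2i library lay above every FCS library, and for 1218 (5.81%) every 2i library lay below. Counts of list members without overlap are to be read beside these. Of the 5458 called genes, 5343 (97.9%) had the same sign of fold change in each of the 3 lines. The calls rest on these same libraries and favour genes that move alike in the lines, so this share is not a separate check.

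Among genes of at least 10 CPM with no overlap between the media, the highest fold change was that of Cdx1, a homeobox gene that beta-catenin activates in the mouse embryo. It had 92.2 to 347 CPM in 2i (median 176) and 0.154 to 1.60 CPM in FCS (median 0.530), a log2 fold change of 8.32 ± 0.49 (adjusted p = 2.33e-06). Lack of overlap was a condition for this list, and the gap in Cdx1 was wide. The other 11 were Tlx2, Tnni1, Hoxa10, Tmem92, Bhmt, Aurkc, Trpm1, Cd3d, Hoxa7, Stra8 and Ppp1r14d, with log2 fold changes of 4.75 to 7.62. They include homeobox genes (Tlx2, Hoxa10 and Hoxa7), a meiotic kinase (Aurkc) and Stra8, which germ cells need to enter meiosis. Levels varied between 2i libraries, as in Bhmt, the betaine-homocysteine methyltransferase, with 2.23 to 77.1 CPM in 2i against 0.0471 to 0.524 CPM in FCS.

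The 12 lowest were Enpp2, Tagln, Acta2, Car4, Fndc3c1, Thbs1, Esrp1, Ccn4, Otx2, Egr1, Spry4 and Plac8, with log2 fold changes of -7.96 to -5.95. Enpp2, which encodes autotaxin, the enzyme that makes lysophosphatidic acid, had 0 to 0.211 CPM in 2i (median 0.0787) and 8.52 to 46.7 CPM in FCS (median 17.4), a log2 fold change of -7.96 ± 0.54 (adjusted p = 6.73e-06). Esrp1, an epithelial splicing regulator, had 0.242 to 1.69 CPM in 2i (median 0.694) and 44 to 131 CPM in FCS (median 78.6), a log2 fold change of -6.80 ± 0.47 (adjusted p = 6.77e-06). Neither gene overlapped between the media, as the rule for this list required. Tagln, Acta2 and Thbs1, which are abundant in contractile and mesenchymal cells, spread widely within FCS: Tagln had 2.45 to 406 CPM there and 0.0299 to 0.312 CPM in 2i. The 406 CPM was in FCS Bod1L replicate 1, the library with the highest feeder marker sum, and the part of that sum in these genes was not tested.

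Genes that report ERK activity fell. Of 19 ERK targets and feedback regulators, 12 were lower in 2i and none was higher, with a median log2 fold change of -1.55, and 9 of the 12 did not overlap between the media. Over all genes tested, 5.81% were lower in 2i without overlap. Egr1, an immediate early transcription factor, had 0.148 to 0.688 CPM in 2i (median 0.576) and 14.3 to 76.7 CPM in FCS (median 38.8), a log2 fold change of -6.27 ± 0.26 (adjusted p = 1.83e-07). Spry4, a feedback inhibitor of receptor tyrosine kinase signalling, had 0.0685 to 6.48 CPM in 2i (median 2.14) and 84.0 to 197 CPM in FCS (median 118), a log2 fold change of -6.16 ± 0.70 (adjusted p = 8.64e-05). In both genes the highest 2i library was far below the lowest FCS library. The phosphatases that inactivate ERK moved the same way. Dusp6 had 1.75 to 7.78 CPM in 2i and 28.3 to 120 CPM in FCS (log2 fold change -4.29 ± 0.33, adjusted p = 8.25e-06), and Dusp4 had 0.992 to 3.67 CPM in 2i and 20.9 to 147 CPM in FCS (-4.87 ± 0.53, adjusted p = 6.39e-05). No member was higher in the full set, and 1 was called higher without 2i Bod1L replicate 1.

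Targets of Wnt and beta-catenin went up. Of 16, 9 were higher in 2i and 1 was lower, with a median log2 fold change of 1.97, and with the Setd1a line left out 4 were higher. Beside Cdx1, the feedback inhibitors of the pathway were among them. Notum, a secreted enzyme that inactivates Wnt proteins, had 38.9 to 123 CPM in 2i (median 84.7) and 4.59 to 17.1 CPM in FCS (median 13.9), a log2 fold change of 2.79 ± 0.31 (adjusted p = 7.22e-05). Axin2, a scaffold of the beta-catenin destruction complex, had 59.6 to 147 CPM in 2i (median 97.2) and 3.25 to 49.2 CPM in FCS (median 10.7), a log2 fold change of 3.13 ± 0.45 (adjusted p = 0.000413). Neither overlapped between the media, although the highest FCS library of Axin2 came close to the lowest 2i library. Tnfrsf19, a receptor of the tumour necrosis factor family, had 45.2 to 125 CPM in 2i and 6.48 to 42.2 CPM in FCS (2.38 ± 0.42, adjusted p = 0.00140). Sp5, a zinc finger repressor and direct target of beta-catenin, was named for its promoter after its values were seen. It had 19.09 to 111 CPM in 2i (median 72.9) and 0.256 to 40.7 CPM in FCS (median 3.08), a log2 fold change of 3.55 ± 0.87 (adjusted p = 0.00965), and its media overlapped.

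The TCF/LEF motif CTTTGAT, searched on both strands in windows of 300 bases from 250 before to 50 after the annotated start, was in 3.73% of all 32851 RefSeq promoters of GRCm38.p6. Of the 11 Wnt targets with a promoter in that set, Sp5 and Tnfrsf19 held it, in 2 of 19 promoter windows (10.5%). The 10 naive pluripotency factors and the 12 LIF genes with a promoter held none. The windows of both genes are shown because they are the only ones of the list with the motif, which stands in capitals. The Sp5 window lies at chr2:70474673-70474972 on the + strand and the Tnfrsf19 window at chr14:61037938-61038237 on the - strand, where the motif is read on the opposite strand.
Sp5: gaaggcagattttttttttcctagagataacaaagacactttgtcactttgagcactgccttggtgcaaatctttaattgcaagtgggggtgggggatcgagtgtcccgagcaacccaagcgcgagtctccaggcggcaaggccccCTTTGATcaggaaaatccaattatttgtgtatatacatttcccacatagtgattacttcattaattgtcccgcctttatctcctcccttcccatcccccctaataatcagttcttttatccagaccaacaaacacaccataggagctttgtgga
Tnfrsf19: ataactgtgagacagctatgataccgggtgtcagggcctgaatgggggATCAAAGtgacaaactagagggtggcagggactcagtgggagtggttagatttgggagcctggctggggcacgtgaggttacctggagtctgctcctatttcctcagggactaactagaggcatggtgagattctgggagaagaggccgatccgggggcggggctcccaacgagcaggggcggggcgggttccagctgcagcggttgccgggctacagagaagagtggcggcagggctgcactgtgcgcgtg

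Naive pluripotency factors were higher in 2i, and the core factors shared with serum cells did not pass the test. Of 15 naive factors, 10 were higher, none was lower and all 15 had a fold change above 0, with a median of 0.85. Gbx2, a homeobox target of STAT3 in mouse ESC, had 31.7 to 58.0 CPM in 2i (median 40.5) and 3.67 to 16.2 CPM in FCS (median 6.29), a log2 fold change of 2.68 ± 0.28 (adjusted p = 4.82e-05). Klf2, a Krüppel-like factor whose protein ERK signalling destabilises, had 132 to 556 CPM in 2i and 48.1 to 116 CPM in FCS (1.42 ± 0.26, adjusted p = 0.00163). These were the 2 members with no overlap. Tfcp2l1, a partner of Esrrb, had 826 to 1580 CPM in 2i (median 1094) and 87.04 to 1064 CPM in FCS (median 194), a log2 fold change of 2.10 ± 0.43 (adjusted p = 0.00334). Fbxo15, a classic reporter gene of ESC, was higher as well (1.55 ± 0.26, adjusted p = 0.000986). Nanog, named after its values were seen, had 844 to 1323 CPM in 2i and 234 to 1052 CPM in FCS (1.08 ± 0.25, adjusted p = 0.00693). The highest FCS values of Tfcp2l1 and Nanog were in FCS Mll2 replicate 1, and without it 11 naive factors were higher and the median was 1.10. With the Bod1L line left out 4 were higher and with the Setd1a line left out 3, and the median of the list was then 0.78 and 0.92. Nanog and Tfcp2l1 were not called in either of these fits. Zfp42 (Rex1), a common naive marker, had 92.5 to 520 CPM in 2i and 62.8 to 727 CPM in FCS and was not called (0.13 ± 0.42, adjusted p = 0.858), with a fold change of -0.33 without 2i Mll2 replicate 2 and -0.11 without FCS Mll2 replicate 1.

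Of 14 general pluripotency genes, 2 were higher (14.3%, against 13.6% of all genes) and 6 lower, with a median log2 fold change of -0.30. The 2 higher calls became 1 when any of 7 libraries was left out. Pou5f1 (Oct4), which every pluripotent cell needs, had 437 to 950 CPM in 2i and 490 to 673 CPM in FCS (-0.05 ± 0.16, adjusted p = 0.846), and Sox2, its partner, had 341 to 680 CPM in 2i and 260 to 575 CPM in FCS (0.12 ± 0.16, adjusted p = 0.650). The fold change of Pou5f1 was 0.005 without FCS Bod1L replicate 2, and that of Sox2 was -0.02 without 2i Mll2 replicate 2. The lower genes include regulators of the let-7 microRNA pathway. Utf1, a chromatin factor of ESC, had 10.6 to 25.2 CPM in 2i (median 14.1) and 160 to 278 CPM in FCS (median 211), a log2 fold change of -3.71 ± 0.23 (adjusted p = 4.15e-06). Lin28a, which blocks let-7 maturation, had 26.2 to 84.6 CPM in 2i (median 36.7) and 220 to 646 CPM in FCS (median 436), a log2 fold change of -3.32 ± 0.35 (adjusted p = 5.66e-05). Both genes separated the media without overlap. Its paralogue Lin28b (-2.62 ± 0.35, adjusted p = 0.000269) and the RNA-binding ubiquitin ligase Trim71 (-0.72 ± 0.13, adjusted p = 0.00139) fell too.

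**Figure D2:**
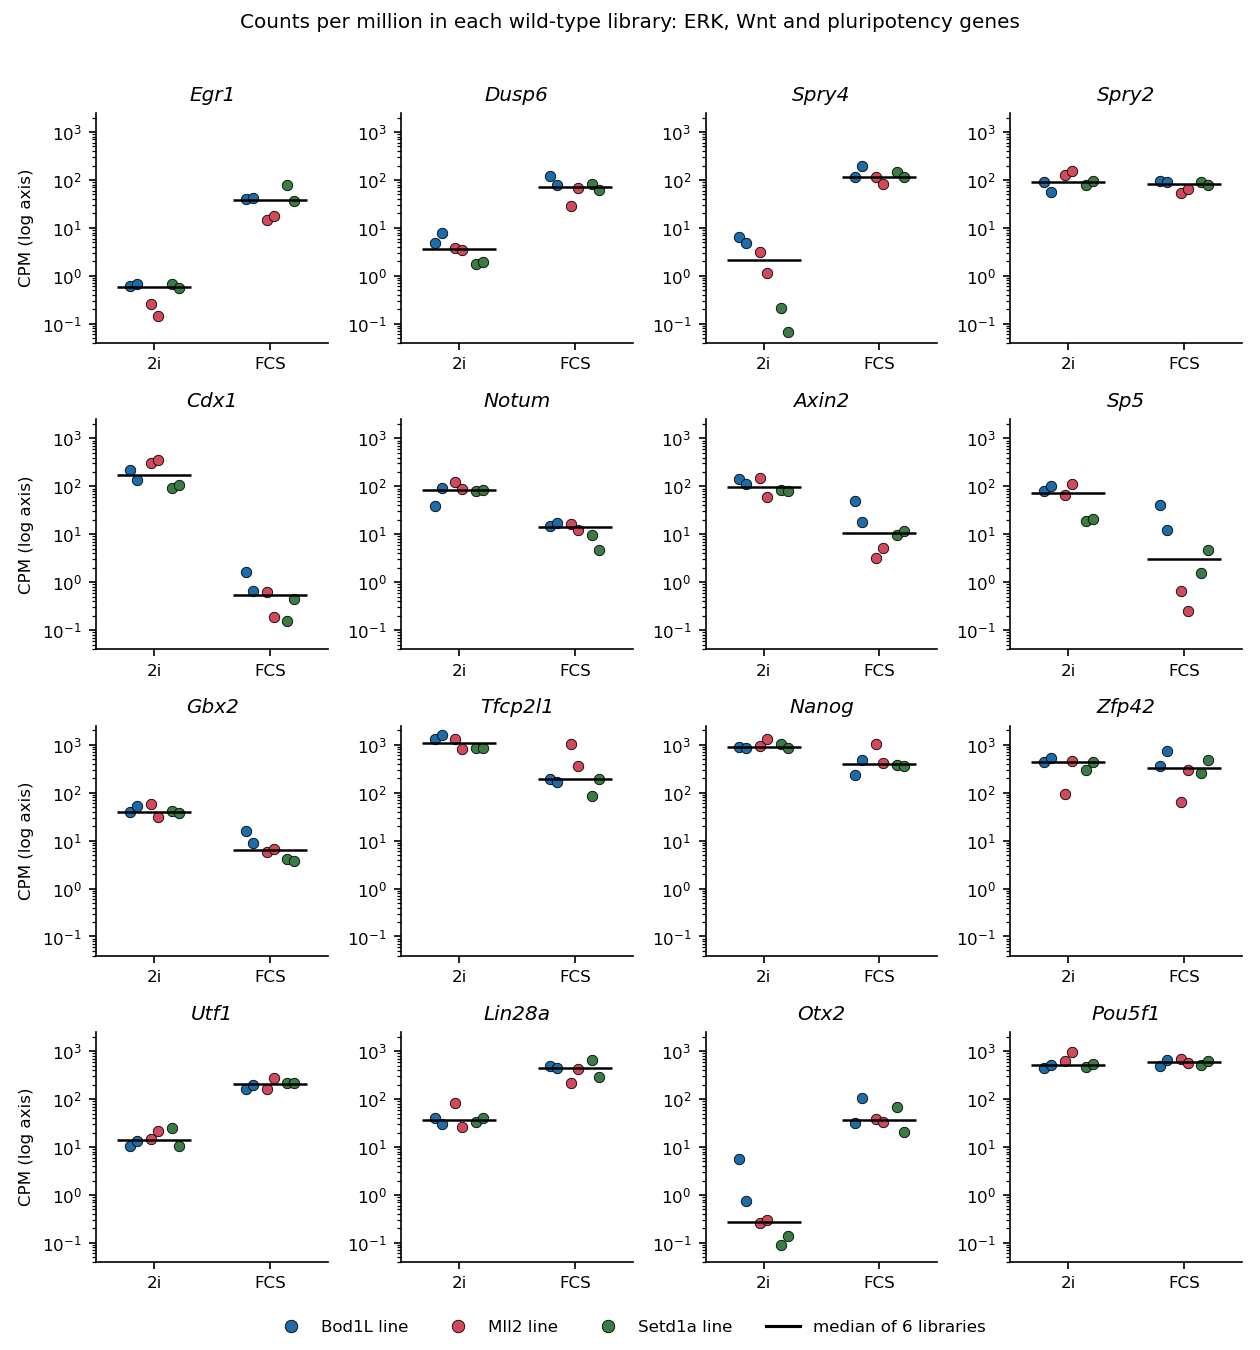
CPM of 16 genes on a log axis, each point 1 library and each bar the median of the 6 libraries of a medium, 2i left of FCS, with values under 0.05 CPM drawn at 0.05. Egr1, Dusp6 and Spry4 lie lower in all 2i libraries, Cdx1, Notum, Axin2 and Gbx2 higher, Utf1, Lin28a and Otx2 lower, while Pou5f1 and Zfp42 overlap.

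Of 12 formative and primed genes, which mark the epiblast after implantation, 6 were lower in 2i and none was higher, with a median log2 fold change of -1.28. Of the 12, 4 had a fold change above 0. The 5 primed markers summed to 56.2 to 105 CPM in 2i and 67.6 to 303 CPM in FCS, which overlap. Among these 5, 3 were called lower, but Zic2 had the higher mean in 2i (67.3 against 38.1 CPM). Sox3 had means of 2.52 CPM in 2i and 2.54 CPM in FCS. Otx2, the homeobox factor that drives the exit from the naive state, had 0.0903 to 5.68 CPM in 2i (median 0.276) and 20.4 to 104 CPM in FCS (median 35.8), a log2 fold change of -6.29 ± 0.79 (adjusted p = 0.000172). Fgf5, the classic ligand marker of the primed epiblast, had 0 to 0.411 CPM in 2i (median 0.135) and 1.44 to 22.4 CPM in FCS (median 6.23), a log2 fold change of -5.79 ± 0.79 (adjusted p = 0.000271). The lowest FCS library of each was above the highest 2i library. Pou3f1, a POU factor (-4.06 ± 0.76, adjusted p = 0.00204), and Grhl2, an epithelial regulator (-2.93 ± 0.46, adjusted p = 0.000728), also fell with no overlap. In turn, 1 member was called higher without 2i Mll2 replicate 1, without FCS Bod1L replicate 1 or without FCS Setd1a replicate 1.

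LIF was in both media, and genes of its receptor and of STAT3 did not move together. Of 12, 2 were higher (16.7%, near the 13.6% of all genes) and 5 lower (41.7%, against 12.4%), with a median log2 fold change of -0.23. The 2 higher became 1 without FCS Bod1L replicate 2 or without FCS Mll2 replicate 2. Bcl3, an inhibitor of kappa B family member, had 32.2 to 79.7 CPM in 2i (median 50.5) and 9.54 to 20.4 CPM in FCS (median 14.9), a log2 fold change of 1.79 ± 0.18 (adjusted p = 3.81e-05). Cish, a suppressor of cytokine signalling, had 0.919 to 2.77 CPM in 2i and 3.39 to 12.1 CPM in FCS (-1.88 ± 0.30, adjusted p = 0.000726). Junb, an AP-1 factor that ERK also induces, fell (-2.08 ± 0.36, adjusted p = 0.00119), as did the oncostatin M receptor Osmr, which was below 1.2 CPM in all 12 libraries (-2.64 ± 0.58, adjusted p = 0.00545). Il6st (gp130), the shared signalling subunit, had 60.8 to 203 CPM in 2i and 96.7 to 169 CPM in FCS and was not called (0.11 ± 0.23, adjusted p = 0.769), with a fold change of -0.03 without 2i Bod1L replicate 2.

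Of the 4 ID genes, which BMPs in serum induce in ESC, Id1 and Id2 were lower in 2i and Id3 and Id4 were not called. Id2 had 1.59 to 5.95 CPM in 2i (median 2.34) and 20.2 to 47.8 CPM in FCS (median 31.9), a log2 fold change of -3.61 ± 0.36 (adjusted p = 4.30e-05). Id1 had 0.482 to 3.32 CPM in 2i (median 2.38) and 9.26 to 76.5 CPM in FCS (median 44.6), a log2 fold change of -4.18 ± 0.66 (adjusted p = 0.000704). Neither overlapped, and the 2 lowest FCS values of Id1 were those of the Mll2 line. Id3 had 3.34 to 36.6 CPM in 2i (median 8.87) and 9.17 to 67.1 CPM in FCS (median 50.3), and its log2 fold change of -2.06 ± 0.83 did not pass the test (adjusted p = 0.0902). In 9 alternative fits, however, Id3 was called lower. The ligand gene Bmp4 fell (-3.18 ± 0.41, adjusted p = 0.000193), and the inhibitory Smad6 rose (1.06 ± 0.25, adjusted p = 0.00734). Of the 13 BMP and ID genes, 2 were higher (15.4%, near the 13.6% of all genes) and 3 lower (23.1%, against 12.4%) in all, with a median of 0.00. Of 11 Nodal and Activin genes tested, none was higher and only Skil, a repressor of SMAD signalling, was lower (-0.87 ± 0.27, adjusted p = 0.0338). Skil kept its call in 5 of 12 fits that each left out 1 library, and the list then had 0 to 2 lower members and, without FCS Mll2 replicate 1, 1 higher member. Nodal itself had 41.0 to 96.3 CPM in 2i and 39.9 to 61.0 CPM in FCS and was not called (adjusted p = 0.199).

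The machinery of DNA methylation differed in its de novo arm. Of 10 enzymes and cofactors, 2 were higher (20%, against 13.6% of all genes) and 4 lower (40%, against 12.4%). The median log2 fold change was -0.29, and it was -0.16 without FCS Mll2 replicate 1. With the Bod1L line left out none was called higher and 2 were lower. Dnmt3l, the catalytically inactive cofactor of de novo methylation, had 1.31 to 18.5 CPM in 2i (median 8.47) and 168 to 545 CPM in FCS (median 338), a log2 fold change of -5.33 ± 0.43 (adjusted p = 1.21e-05). Dnmt3b, a de novo methyltransferase, had 27.6 to 103 CPM in 2i (median 85.7) and 176 to 1281 CPM in FCS (median 535), a log2 fold change of -2.90 ± 0.41 (adjusted p = 0.000335). Neither overlapped between the media. Tet2, which oxidises methylcytosine (1.29 ± 0.25, adjusted p = 0.00286), and Uhrf1, which brings DNMT1 to replicated DNA (0.65 ± 0.16, adjusted p = 0.0107), rose. The maintenance enzyme Dnmt1 had 274 to 465 CPM in 2i and 307 to 391 CPM in FCS and was not called (adjusted p = 0.218), but it was called in 2 alternative fits.

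Single Polycomb subunits changed in both directions. Of 17, 4 were higher (23.5%, against 13.6% of all genes) and 2 lower (11.8%, against 12.4% of all genes), with a median log2 fold change of 0.22, which was 0.13 without 2i Mll2 replicate 2. The share of lower subunits was thus near that of all genes. Bmi1, a subunit of Polycomb repressive complex 1, had 21.3 to 53.8 CPM in 2i (median 34.1) and 3.55 to 15.5 CPM in FCS (median 6.09), a log2 fold change of 2.21 ± 0.27 (adjusted p = 0.000131). The other complex changed its accessory subunits. Mtf2 rose (0.94 ± 0.13, adjusted p = 0.000244), while Phf19, also a Polycomb-like protein, had 0.907 to 5.21 CPM in 2i and 10.1 to 58.3 CPM in FCS (-3.36 ± 0.45, adjusted p = 0.000246). Jarid2 fell as well (-0.81 ± 0.15, adjusted p = 0.00166), and none of these 4 genes overlapped between the media. Of 19 tested subunits of COMPASS, the complexes that methylate histone H3 lysine 4, 3 were higher (15.8%) and 2 lower (10.5%), both near the shares over all genes, with a median of 0.02. With the Bod1L line left out 1 was higher and none lower. Ash2l, a core subunit (0.71 ± 0.13, adjusted p = 0.00141), Ncoa6 (0.89 ± 0.19, adjusted p = 0.00445) and Paxip1 (0.54 ± 0.13, adjusted p = 0.00993) rose. Of the genes that name the lines, Bod1l was called, with 196 to 253 CPM in 2i and 203 to 340 CPM in FCS (-0.41 ± 0.14, adjusted p = 0.0436), but kept its call in 4 of 12 fits that each left out 1 library, and the count of lower subunits then ranged from 0 to 2. Setd1a had 36.2 to 54.4 CPM in 2i and 43.8 to 58.2 CPM in FCS, Kmt2b (Mll2) had 86.0 to 191 CPM in 2i and 156 to 205 CPM in FCS, and neither was called (adjusted p = 0.491 and 0.506). The lowest value of Kmt2b was in 2i Mll2 replicate 2.

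Hox genes, which Polycomb holds silent in ESC and which pattern the body axis, were higher in 2i from all 4 clusters. Of 39 Hox genes, 35 passed the filter on low counts, 29 were higher and none was lower, with a median log2 fold change of 4.07, and 19 did not overlap. Those near 0 in FCS passed the filter through their 2i libraries, so these counts describe the list and do not test it. In cluster A all 11 tested genes were called (median 5.20), in cluster B 5 of 8 (median 2.74), in cluster C all 9 (median 4.70) and in cluster D 4 of 7 (median 2.30). Hoxa3, an anterior gene of its cluster, had 0.602 to 13.1 CPM in 2i (median 4.33) and 0 to 0.255 CPM in FCS (median 0.0307), a log2 fold change of 6.20 ± 0.57 (adjusted p = 2.57e-05). It did not overlap between the media. Hoxa4 (4.96 ± 0.46, adjusted p = 2.87e-05) and Hoxc13, at the other end of its cluster (2.85 ± 0.27, adjusted p = 3.28e-05), rose with no overlap as well.

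**Figure D3:**
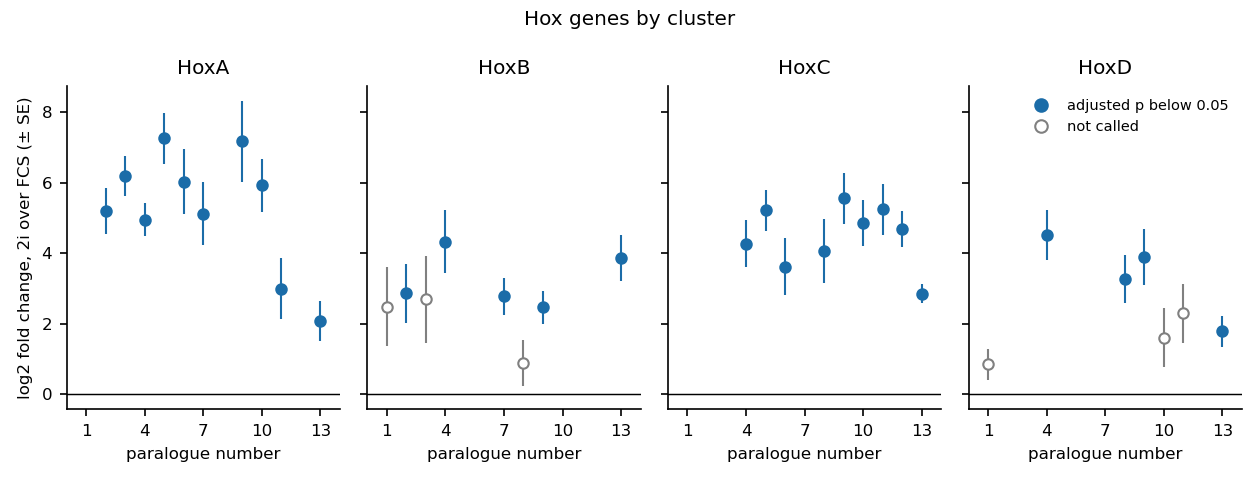
Log2 fold change (2i over FCS, with standard error bars) of 34 of the 35 tested Hox genes by paralogue number, in 1 panel per cluster. All 34 lie above 0, from 0.85 to 7.27, with the highest values in cluster A.

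Retinoic acid activates anterior Hox genes in many tissues, and whether it had a part in the Hox levels here was not tested. Retinoid genes moved in both directions. Of 13, 6 were higher and 3 lower, with a median log2 fold change of 0.50, and 5 had a fold change below 0. The genes named next all rose. Stra6, the receptor that takes up retinol, had 2.58 to 8.598 CPM in 2i (median 6.46) and 0.215 to 0.650 CPM in FCS (median 0.423), a log2 fold change of 3.85 ± 0.37 (adjusted p = 3.40e-05). Dhrs3, which reduces retinal back to retinol, had 4.79 to 20.3 CPM in 2i and 0.396 to 1.17 CPM in FCS (3.63 ± 0.37, adjusted p = 4.82e-05). The receptor gene Rarb, a direct target of retinoic acid, had 2.11 to 9.37 CPM in 2i and 0 to 0.521 CPM in FCS (5.49 ± 0.58, adjusted p = 5.68e-05). None of the 3 overlapped between the media. Stra8, which retinoic acid induces in germ cells, had 9.04 to 156 CPM in 2i and 0.728 to 7.99 CPM in FCS (4.87 ± 0.62, adjusted p = 0.000191).

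Genes of the 2-cell-like state, in which some ESC in culture pass through a programme of the cleavage embryo, were higher in 2i. Of 17, 16 were higher and none was lower, with a median log2 fold change of 4.83. With the Mll2 line left out 3 were called higher, and with the Setd1a line left out also 3, with medians of 3.69 and 3.55. Most were near 0 in FCS and passed the filter through their 2i libraries, so these counts describe the list and do not test it. Many belong to multicopy families among which reads are hard to place, so the values are uncertain by gene. Zscan4c, named after its values were seen, had 9.988 to 85.02 CPM in 2i (median 61.9) and 0.0308 to 12.0 CPM in FCS (median 0.0951), a log2 fold change of 6.54 ± 1.49 (adjusted p = 0.00661). Its media overlapped through FCS Bod1L replicate 2: the FCS Bod1L libraries had 8.01 and 12.0 CPM, and the other 4 FCS libraries 0.0308 to 0.0960 CPM. Tmem92 had 3.603 to 26.3 CPM in 2i and 0 to 1.22 CPM in FCS (5.85 ± 1.05, adjusted p = 0.00156), and the deubiquitinase copies Usp17la, Usp17lb and Usp17ld had log2 fold changes of 4.83 to 5.03.

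Germline genes moved both ways: 4 of 17 were higher and 4 lower (23.5% each, against 13.6% and 12.4% of all genes), with a median log2 fold change of -0.63. That median was -0.13 without FCS Mll2 replicate 1 and -0.95 without FCS Bod1L replicate 1. With the Setd1a line left out 1 germline gene was higher, and with the Bod1L line left out 2. Dazl, an RNA-binding protein of germ cells, had 27.1 to 264 CPM in 2i (median 191) and 5.45 to 30.8 CPM in FCS (median 20.5), a log2 fold change of 3.09 ± 0.48 (adjusted p = 0.000621). Ddx4 (Vasa), a germ cell helicase, had 4.94 to 23.2 CPM in 2i and 24.8 to 38.0 CPM in FCS (-1.52 ± 0.28, adjusted p = 0.00188). Mael, of the piRNA pathway (-2.79 ± 0.52, adjusted p = 0.00194), and Sycp2, of the synaptonemal complex (-2.99 ± 0.57, adjusted p = 0.00220), fell with Ddx4. Dazl and Ddx4 thus went in opposite directions.

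Of 25 imprinted genes tested, 12 were lower in 2i (48%, against 12.4% of all genes), 1 was higher and 12 were not called, with a median log2 fold change of -1.17. Plagl1 (Zac1), a zinc finger regulator of other imprinted genes, was the member that rose, with 135 to 397 CPM in 2i (median 246) and 6.56 to 34.8 CPM in FCS (median 19.3), a log2 fold change of 3.65 ± 0.36 (adjusted p = 3.63e-05). Nnat, a membrane proteolipid, had 0.326 to 1.57 CPM in 2i (median 0.762) and 3.83 to 130 CPM in FCS (median 27.3), a log2 fold change of -5.49 ± 0.62 (adjusted p = 8.22e-05). Neither overlapped. Magel2 and Snrpn, which lie in the Prader-Willi region, fell as well: Magel2 (-4.34 ± 0.45, adjusted p = 4.82e-05) and Snrpn, which encodes a spliceosomal protein, with 21.2 to 40.2 CPM in 2i and 44.3 to 118 CPM in FCS (-1.61 ± 0.22, adjusted p = 0.000304). Without FCS Bod1L replicate 1, the library with the highest feeder marker sum, 10 members were lower and the median was -0.65, with the Bod1L line left out 7 were lower, and the part of that sum in the list was not tested.

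Targets of YAP and SRF, which read out cell tension and the actin cytoskeleton, fell. Of 15, 12 were lower in 2i, none was higher and all 15 had a fold change below 0, with a median of -1.99. Myl9, a regulatory light chain of myosin, had 0.0599 to 0.474 CPM in 2i (median 0.174) and 1.96 to 16.9 CPM in FCS (median 9.22), a log2 fold change of -5.37 ± 0.65 (adjusted p = 0.000126). Cnn2, an actin-binding calponin, had 5.87 to 17.9 CPM in 2i (median 7.51) and 36.6 to 250 CPM in FCS (median 79.2), a log2 fold change of -3.42 ± 0.46 (adjusted p = 0.000269). Ajuba, a LIM protein that inhibits the LATS kinases, had 49.0 to 86.2 CPM in 2i and 139 to 281 CPM in FCS (-1.43 ± 0.19, adjusted p = 0.000260). None of the 3 overlapped between the media. Srf itself, named for its promoter after its values were seen, had 28.7 to 44.1 CPM in 2i and 39.4 to 85.5 CPM in FCS (-0.69 ± 0.18, adjusted p = 0.0144). Without FCS Bod1L replicate 1, 12 members were again lower and the median was -1.64.

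The CArG box, the motif that SRF binds, was searched in the same promoter windows after the data were seen and was found in 1.63% of all of them. Of 13 list genes with a promoter, Cnn2, Myl9, Srf and Vcl held it, in 4 of 14 windows (28.6%). The windows of Myl9, at chr2:156775214-156775513 on the + strand, and of Srf, at chr17:46556113-46556412 on the - strand, are shown with the box in capitals, since Myl9 was the member with the smallest adjusted p and Srf holds 2 boxes in its own promoter.
Myl9: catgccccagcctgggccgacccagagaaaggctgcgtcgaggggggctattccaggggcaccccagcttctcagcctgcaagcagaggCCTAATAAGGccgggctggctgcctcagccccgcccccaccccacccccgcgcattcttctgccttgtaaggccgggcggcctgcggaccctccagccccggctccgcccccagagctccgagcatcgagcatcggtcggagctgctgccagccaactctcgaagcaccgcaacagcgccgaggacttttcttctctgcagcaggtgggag
Srf: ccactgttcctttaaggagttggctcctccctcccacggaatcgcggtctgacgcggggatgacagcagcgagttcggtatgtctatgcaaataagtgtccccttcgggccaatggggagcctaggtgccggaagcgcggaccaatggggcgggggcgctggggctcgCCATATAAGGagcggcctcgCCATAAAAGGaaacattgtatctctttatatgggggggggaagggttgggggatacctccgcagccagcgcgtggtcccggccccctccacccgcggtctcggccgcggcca

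Matrix genes were split. Of 13 basement membrane and matrix genes, 5 were lower (38.5%, against 12.4% of all genes) and 2 higher (15.4%, near the 13.6% of all genes). The median log2 fold change was -0.12, and it was -0.38 without 2i Mll2 replicate 2. The 2 higher became 1 when any of 8 libraries was left out. Lamb1, a laminin chain, had 19.13 to 73.4 CPM in 2i (median 35.2) and 175 to 367 CPM in FCS (median 221), a log2 fold change of -2.63 ± 0.31 (adjusted p = 0.000114). Col18a1 (-1.996 ± 0.27, adjusted p = 0.000272) and Col4a1 (-2.59 ± 0.45, adjusted p = 0.00128), both basement membrane collagens, fell as well, with no overlap. Nid1, which links laminin to collagen IV, had 228 to 376 CPM in 2i and 67.6 to 172 CPM in FCS, and rose (1.54 ± 0.24, adjusted p = 0.000677). Of 11 tested feeder and fibroblast markers, 8 were lower and 1 was higher, with a median of -4.05, and 4 were lower with the Bod1L or the Setd1a line left out. Thy1, a fibroblast surface protein, had 0.482 to 2.02 CPM in 2i and 6.38 to 23.8 CPM in FCS (-3.12 ± 0.38, adjusted p = 0.000131), and the matrix genes Col6a1 (-4.11 ± 0.53, adjusted p = 0.000201) and Postn, at 0 to 0.0685 CPM in 2i and 0.0920 to 10.6 CPM in FCS (-6.46 ± 1.19, adjusted p = 0.00182), fell too. The receptor Pdgfrb went the other way (3.04 ± 0.51, adjusted p = 0.00101). Whether feeder cells had a part in the matrix and cytoskeletal genes was not tested.

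MYC genes fell with part of the ribosome machinery. Mycn had 50.9 to 129 CPM in 2i (median 71.2) and 166 to 308 CPM in FCS (median 259), a log2 fold change of -1.68 ± 0.22 (adjusted p = 0.000222). Myc had 1.63 to 10.2 CPM in 2i (median 3.52) and 9.56 to 60.3 CPM in FCS (median 24.5), a log2 fold change of -2.80 ± 0.55 (adjusted p = 0.00268). The media did not overlap in Mycn and overlapped in Myc. Of the 8 genes of the network these 2 were lower, and Mnt, a repressor that competes with MYC for its partner MAX, was higher (0.48 ± 0.15, adjusted p = 0.0328) but kept its call in 3 of 12 fits that each left out 1 library, which gave 0 to 2 higher members. Of 19 nucleolar ribosome biogenesis genes, 6 were lower and none higher, with a median of -0.17, which was -0.31 without 2i Mll2 replicate 2, and 2 or 3 were lower with the Bod1L or the Setd1a line left out. The 6 include Odc1, which is the rate-limiting enzyme of polyamine synthesis and a MYC target, and not a nucleolar gene. Odc1 had 121 to 230 CPM in 2i and 289 to 502 CPM in FCS (-1.05 ± 0.15, adjusted p = 0.000405). Polr1b, a subunit of RNA polymerase I (-0.70 ± 0.15, adjusted p = 0.00420), the helicase Ddx21 (-0.65 ± 0.14, adjusted p = 0.00482) and Nolc1 (-0.65 ± 0.17, adjusted p = 0.0120) fell with it.

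Of 18 regulators of G1 and the cell cycle, 6 were higher and 2 lower (11.1%, against 12.4% of all genes), with a median log2 fold change of 0.29, which was 0.17 without 2i Mll2 replicate 2, and 2 were higher with the Bod1L line left out. Cdkn1a (p21), an inhibitor of cyclin-dependent kinases, had 182 to 393 CPM in 2i (median 232) and 29.2 to 88.5 CPM in FCS (median 46.0), a log2 fold change of 2.43 ± 0.26 (adjusted p = 5.64e-05). Rbl1 (p107), of the retinoblastoma family (0.90 ± 0.18, adjusted p = 0.00336), and E2f1 (0.84 ± 0.17, adjusted p = 0.00364) rose, and cyclin E1 (Ccne1), which drives entry into S phase, fell (-0.86 ± 0.20, adjusted p = 0.00671). The 2 lower calls became 1 when any of 9 libraries was left out. Cdkn1a is also a p53 target. Of 14 other p53 targets, 2 were higher (14.3%, near the 13.6% of all genes) and 3 lower, with a median of -0.03, and 1 was higher without 2i Setd1a replicate 2, FCS Setd1a replicate 1 or FCS Setd1a replicate 2. The 2 higher were Phlda3, which restrains AKT (1.21 ± 0.20, adjusted p = 0.000945), and Ei24, named after its values were seen (0.64 ± 0.18, adjusted p = 0.0224), while the apoptosis effectors Perp (-2.13 ± 0.35, adjusted p = 0.000947), Pmaip1 (Noxa, -1.55 ± 0.28, adjusted p = 0.00162) and Bbc3 (Puma, -0.75 ± 0.19, adjusted p = 0.0128) fell.

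Glucose use and lipid synthesis moved apart. Of 21 glycolysis genes, 7 were lower and none higher, with a median log2 fold change of -0.28, which was -0.15 without 2i Mll2 replicate 2. With the Bod1L line left out 3 were lower, and 1 was called higher without 2i Mll2 replicate 1 or FCS Mll2 replicate 2. Slc2a1 (Glut1), the main glucose importer, had 97.4 to 234 CPM in 2i (median 148) and 374 to 756 CPM in FCS (median 544), a log2 fold change of -1.77 ± 0.24 (adjusted p = 0.000271). Pdk1, a pyruvate dehydrogenase kinase, had 9.65 to 57.3 CPM in 2i and 78.2 to 190 CPM in FCS (-2.06 ± 0.36, adjusted p = 0.00128). Neither overlapped between the media. The lactate exporter Slc16a3 (-2.63 ± 0.47, adjusted p = 0.00150) and Pfkl, a phosphofructokinase (-1.08 ± 0.21, adjusted p = 0.00249), also fell with no overlap.

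Of 11 fatty acid synthesis genes, 7 were higher and none lower, with a median of 0.93. Elovl6, an elongase, had 368 to 807 CPM in 2i (median 519) and 148 to 314 CPM in FCS (median 208), a log2 fold change of 1.29 ± 0.15 (adjusted p = 8.28e-05). Scd2, a desaturase, had 1006 to 2288 CPM in 2i and 311 to 1002 CPM in FCS (1.27 ± 0.25, adjusted p = 0.00257). The desaturase Fads1 (1.33 ± 0.23, adjusted p = 0.00133) and Acly, which makes cytosolic acetyl-CoA (0.77 ± 0.15, adjusted p = 0.00220), rose with some overlap. Of 24 genes of cholesterol synthesis and uptake, 10 were higher and none lower, with a median of 0.45. The higher count was 5 with the Bod1L line left out, 2 with the Setd1a line left out and 6 with no line term. Tm7sf2, a sterol reductase, had 18.1 to 38.8 CPM in 2i and 4.55 to 14.9 CPM in FCS (1.46 ± 0.22, adjusted p = 0.000473), and Ebp (1.69 ± 0.26, adjusted p = 0.000679), Fdft1 (0.71 ± 0.14, adjusted p = 0.00226) and Fdps (0.91 ± 0.18, adjusted p = 0.00331), all enzymes of the pathway, rose too.

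Of 40 nuclear subunits of complex I, the first enzyme of the respiratory chain, 5 were higher (12.5%, near the 13.6% of all genes) and none lower, with a median log2 fold change of 0.31. Ndufv2 had 130 to 329 CPM in 2i (median 146) and 91.6 to 106 CPM in FCS (median 99.02), a log2 fold change of 0.79 ± 0.19 (adjusted p = 0.00891). The other members of smallest p were Ndufb5 (0.63 ± 0.15, adjusted p = 0.00886), Ndufs8 (0.80 ± 0.21, adjusted p = 0.0132) and Ndufa6 (0.89 ± 0.24, adjusted p = 0.0149). The highest 2i value of each was in Mll2 replicate 2. Without that library 4 subunits were higher and the median was 0.04, and the fold change of Ndufs8 was 0.53. Without 2i Mll2 replicate 1, 8 subunits were higher, and with the Bod1L or the Setd1a line left out, 2. Of the 13 proteins encoded in mitochondrial DNA, mt-Nd1 alone was lower, with 2065 to 2808 CPM in 2i and 2913 to 3710 CPM in FCS (-0.45 ± 0.12, adjusted p = 0.0174), and it was not called without 2i Setd1a replicate 2. Mitochondrially encoded genes took 3.85% ± 0.42 of counts in 2i and 4.28% ± 0.66 in FCS (SD, n = 6 each; two-sided exact permutation test within lines, p = 0.241, where 0.00926 was the smallest possible). Of 17 genes of the integrated stress response, 2 were higher (11.8%, against 13.6% of all genes) and none lower, with a median of 0.06, which was -0.04 without 2i Mll2 replicate 2: asparagine synthetase, Asns, with 545 to 1179 CPM in 2i and 160 to 444 CPM in FCS (1.25 ± 0.18, adjusted p = 0.000387), and the chromatin protein Nupr1 (1.89 ± 0.40, adjusted p = 0.00442). Atf4, the factor at the centre of that response, was not called (adjusted p = 0.128), and 1 member was called lower without 2i Bod1L replicate 1 or FCS Setd1a replicate 1.

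Some neural genes were lower in 2i. The 5 defining neural markers summed to 2.32 to 13.5 CPM in 2i and 4.14 to 20.0 CPM in FCS. Of 13 neural genes tested, 4 were lower and none higher, with a median log2 fold change of -0.17. The median was -0.55 without FCS Mll2 replicate 1, -0.30 without FCS Bod1L replicate 1 and -0.33 without 2i Mll2 replicate 2, but 0.60 with the Setd1a line left out. Neurod1, a proneural factor, had 0.0726 to 1.13 CPM in 2i and 1.90 to 11.9 CPM in FCS (-3.95 ± 0.59, adjusted p = 0.000485), and Nes (-1.48 ± 0.26, adjusted p = 0.00128), Map2 (-2.26 ± 0.52, adjusted p = 0.00666) and Tubb3 (-0.88 ± 0.25, adjusted p = 0.0206), which encode neural filaments, a microtubule protein and a tubulin, fell too. Tubb3 had an adjusted p of 0.0532 without FCS Mll2 replicate 2 and 0.0533 without FCS Setd1a replicate 1, and 1 neural marker was called higher without 2i Setd1a replicate 1 and 2 without FCS Setd1a replicate 1. Of 10 primitive endoderm markers tested, 3 were higher and 4 lower, with a median of 0.80. With the Setd1a line left out 1 was higher, and with the Bod1L line left out 2 were lower. Sox7 (-4.23 ± 0.47, adjusted p = 7.28e-05), Dab2 (-2.19 ± 0.26, adjusted p = 0.000115) and Cubn (-2.40 ± 0.52, adjusted p = 0.00477) fell, and of these only Dab2, an endocytic adaptor, reached 3 CPM in any library. Sox17, an endoderm transcription factor, had 0.368 to 1.08 CPM in 2i (median 0.824) and 0.0583 to 0.283 CPM in FCS (median 0.213) and rose with no overlap (1.92 ± 0.43, adjusted p = 0.00626). The nuclear receptor gene Hnf4a, named after its values were seen, rose as well (3.87 ± 1.16, adjusted p = 0.0268), with 0.918 to 80.8 CPM in 2i (median 2.06) and 0.0308 to 1.75 CPM in FCS (median 0.263). Its 80.8 CPM was in Mll2 replicate 1, without which the fold change was 2.20 (adjusted p = 0.0567), and Hnf4a kept its call in 7 of 12 fits that each left out 1 library. Gata6, Gata4 and Pdgfra, which mark the lineage early, had fold changes of 1.02, 0.86 and 0.74 and were not called (adjusted p = 0.0666, 0.0981 and 0.168). Gata6 was called higher in 4 alternative fits, and Gata4 and Pdgfra in 1 each.

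Of 9 mesendoderm markers tested, 1 was higher (11.1%, near the 13.6% of all genes) and 2 lower (22.2%, against 12.4%), with a median of -0.90. Gsc, a homeobox gene of the organizer, had 2.17 to 13.9 CPM in 2i (median 4.43) and 0.128 to 0.613 CPM in FCS (median 0.388), a log2 fold change of 3.75 ± 0.51 (adjusted p = 0.000287), with no overlap. The lower ones were Wnt3 (-2.03 ± 0.58, adjusted p = 0.0205) and Lhx1 (-3.83 ± 1.22, adjusted p = 0.0361). Wnt3 had an adjusted p of 0.0555 without 2i Bod1L replicate 1 and 0.0597 without 2i Bod1L replicate 2, Lhx1 kept its call in 4 of 12 fits that each left out 1 library, and the count of lower markers then ranged from 0 to 5. Of 11 trophoblast markers tested, 1 was higher (9.09%, against 13.6% of all genes) and 2 lower (18.2%, against 12.4%), with a median of -1.44. The lower count ranged from 0 to 5 when single libraries were left out. Tfap2a rose (1.36 ± 0.36, adjusted p = 0.0150), and Hand1 fell (-3.74 ± 1.05, adjusted p = 0.0193) but had an adjusted p of 0.101 without FCS Setd1a replicate 2 and 0.0576 without 2i Bod1L replicate 2. The trophoblast gene Tpbpa was at 0 in all 12 libraries. Of 52 tested replication-dependent histone genes, whose messages mostly lack poly(A) tails, 2 were lower and none higher, with a median of 0.00, which was -0.22 without FCS Mll2 replicate 1 and -0.36 without 2i Mll2 replicate 2.

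**Figure D4:**
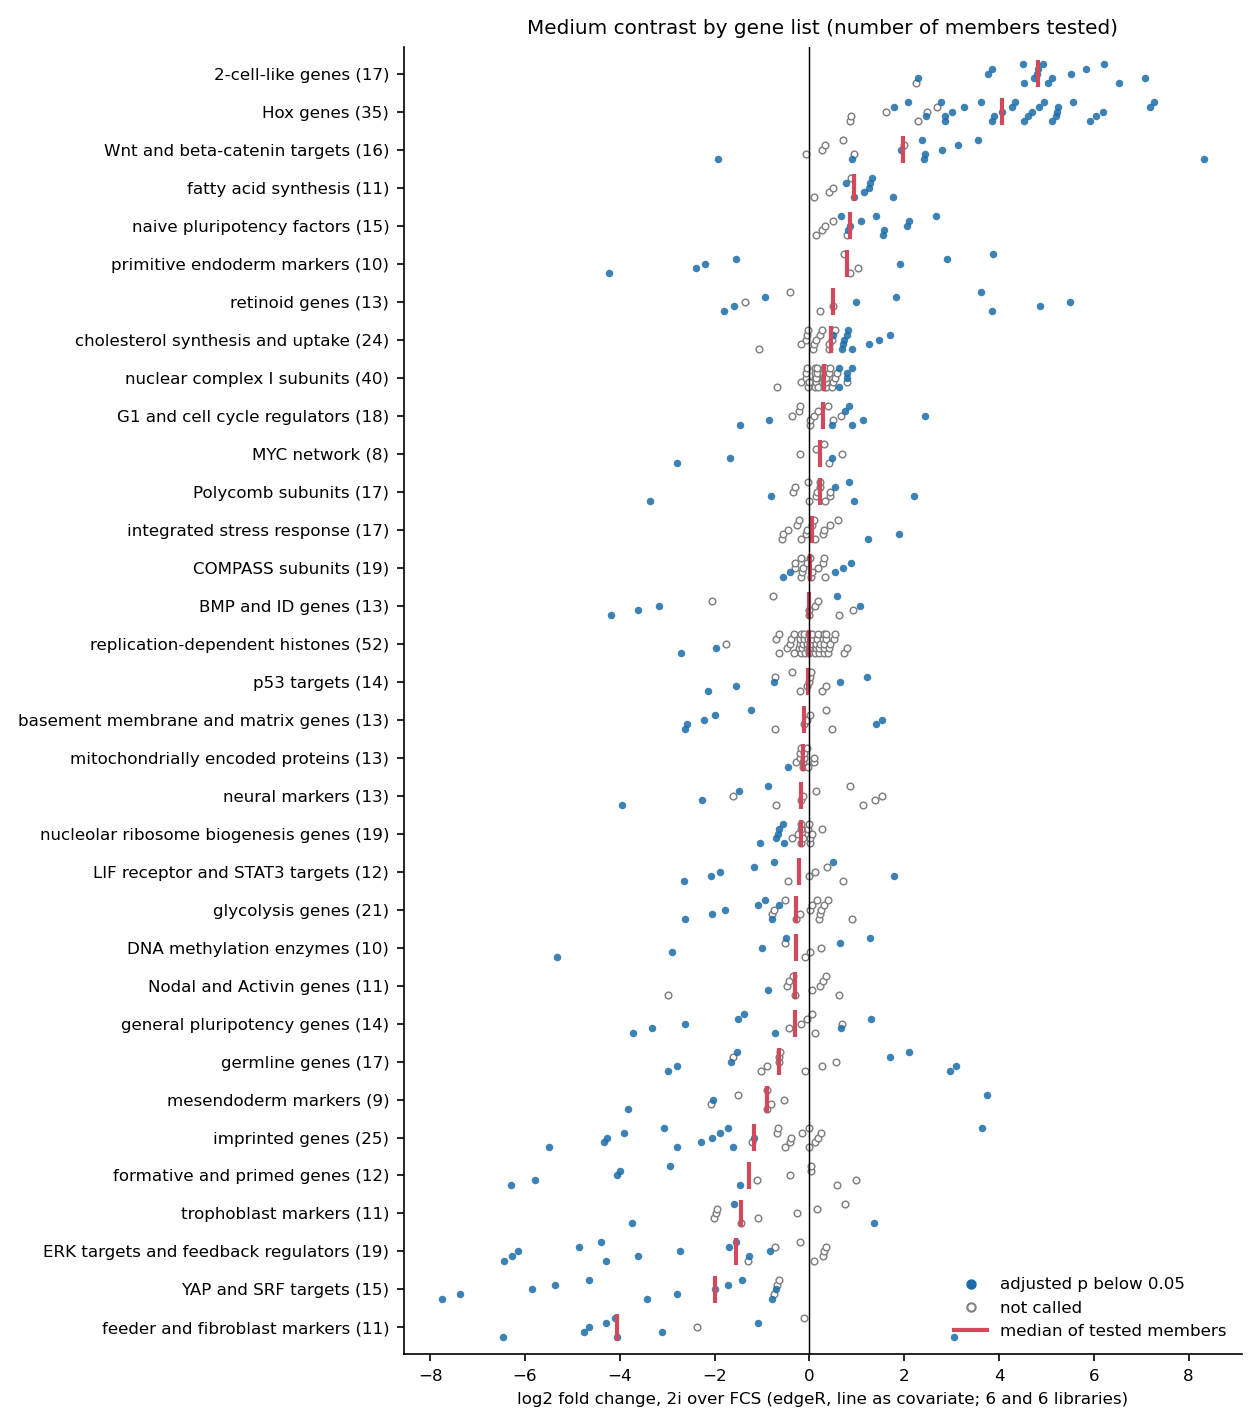
Log2 fold change (2i over FCS) of every tested member of each gene list, 1 point per gene, with the median of each list marked. ERK targets (median -1.55) and YAP and SRF targets (median -1.99) lie mostly left of 0, and Wnt targets (1.97), 2-cell-like genes (4.83) and Hox genes (4.07) mostly right of it. Hox and 2-cell-like genes near 0 in FCS passed the filter through their 2i libraries.

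On the X chromosome the median of 900 tested genes was -0.17, with 6.11% higher and 16.7% lower in 2i. Without FCS Mll2 replicate 1, in which X-linked genes were high, the median was -0.05 and 11.3% were higher and 14.3% lower. X-linked genes took 3.01% ± 0.80 of counts in 2i and 3.68% ± 0.96 in FCS (SD, n = 6 each; two-sided exact permutation test within lines, p = 0.176). Xist, the RNA that silences an X chromosome, reached 3.05 CPM in 2i and 23.7 CPM in FCS, where the highest value was in Mll2 replicate 1. FCS Bod1L replicate 2 had 20.1 CPM, and the next highest FCS value was 2.62 CPM, in Mll2 replicate 2. X-linked genes took 5.145% of counts in FCS Mll2 replicate 1 and 4.645% in FCS Bod1L replicate 2.

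The medium effect was also compared between lines. Fitted in single lines, 1292 genes (6.16%) were higher and 1521 (7.26%) lower in 2i in the Bod1L line, 1275 (6.08%) higher and 1473 (7.03%) lower in the Mll2 line, and 1016 (4.85%) higher and 654 (3.12%) lower in the Setd1a line. Each rests on 2 libraries per medium. Without 1 of its own 4 libraries, the Bod1L line had 362 to 753 genes higher, and 639 to 865 lower without FCS Bod1L replicate 1 or either 2i Bod1L library. The Mll2 line had 494 higher and 790 lower without FCS Mll2 replicate 1, 409 higher and 926 lower without FCS Mll2 replicate 2, 2391 higher and 2368 lower without 2i Mll2 replicate 1, and 813 and 839 higher without 2i Setd1a replicate 1 or 2. Without 1 of its own 4 libraries, the Setd1a line had 244 to 380 higher and 67 to 405 lower, and it had 1027 lower without 2i Mll2 replicate 2. The test of a line by medium interaction called 11 genes (0.0525%), and 2674 had an unadjusted p below 0.05. This count rested on single libraries: it was 0 without either 2i Setd1a library, without 2i Bod1L replicate 1, FCS Bod1L replicate 1 or FCS Mll2 replicate 1, 1 without FCS Mll2 replicate 2 or either FCS Setd1a library, 7 without 2i Bod1L replicate 2, 18 without FCS Bod1L replicate 2, 51 without 2i Mll2 replicate 2 and 631 without 2i Mll2 replicate 1. T (Brachyury), the factor of the primitive streak, had 5.38 to 18.7 CPM in the 2i libraries of all lines, and in FCS 79.6 and 39.0 CPM in the Bod1L line, 0.276 and 0.224 CPM in the Mll2 line and 6.01 and 15.0 CPM in the Setd1a line. Its log2 fold change was thus -2.20 in the Bod1L line, 4.97 in the Mll2 line and -0.88 in the Setd1a line (interaction adjusted p = 0.0488). Parm1, a mucin-like protein, was higher in 2i in the Bod1L line, with 54.8 and 60.4 CPM in 2i and 7.46 and 7.95 CPM in FCS, and at 2.10 to 4.31 CPM in 2i and 4.13 to 8.80 CPM in FCS in the other lines (interaction adjusted p = 0.0488). Id1 had log2 fold changes of -4.57 in the Bod1L line, -1.74 in the Mll2 line and -6.28 in the Setd1a line. Id3 had log2 fold changes of -2.78 in the Bod1L line, 1.30 in the Mll2 line and -4.04 in the Setd1a line. Myom2 and Rerg completed the 6 genes with the smallest p, with log2 fold changes of 4.97 and -0.38 in the Bod1L line, -1.20 and 3.37 in the Mll2 line and 3.27 and 4.03 in the Setd1a line.

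The 12 knockout libraries of the same lines and media gave a second comparison of 2i with FCS in other samples. There 30.4% of 21442 genes were called, 3270 (15.3%) higher in 2i and 3257 (15.2%) lower. Of the 5358 genes called in wild type and tested in both, 4009 (74.8%) were called in the same direction in the knockouts, which is 64.2% of the 6246 called there, and none was called in the opposite direction. Cdx1 had a log2 fold change of 7.98 in knockouts and 8.32 in wild type, and Plagl1 4.02 in knockouts and 3.65 in wild type. Egr1 had a log2 fold change of -5.04 in knockouts and -6.27 in wild type, Dnmt3l -4.77 in knockouts and -5.33 in wild type, and Utf1 -4.28 in knockouts and -3.71 in wild type. Of 19 ERK targets, 10 were lower in knockouts and 12 in wild type, of 16 Wnt targets, 12 were higher in knockouts and 9 in wild type, and of 35 Hox genes, 29 were higher in each. Nucleolar ribosome biogenesis genes were lower for 16 of 19 in knockouts and 6 of 19 in wild type, with a median of -0.45 in knockouts and -0.17 in wild type. Complex I had 1 subunit higher and 2 lower in knockouts, against 5 higher and none lower in wild type, with a median of -0.16 in knockouts and 0.31 in wild type, and imprinted genes had 6 lower in knockouts and 12 in wild type. The difference between knockout and wild type in these lists was not tested.

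**Figure D5:**
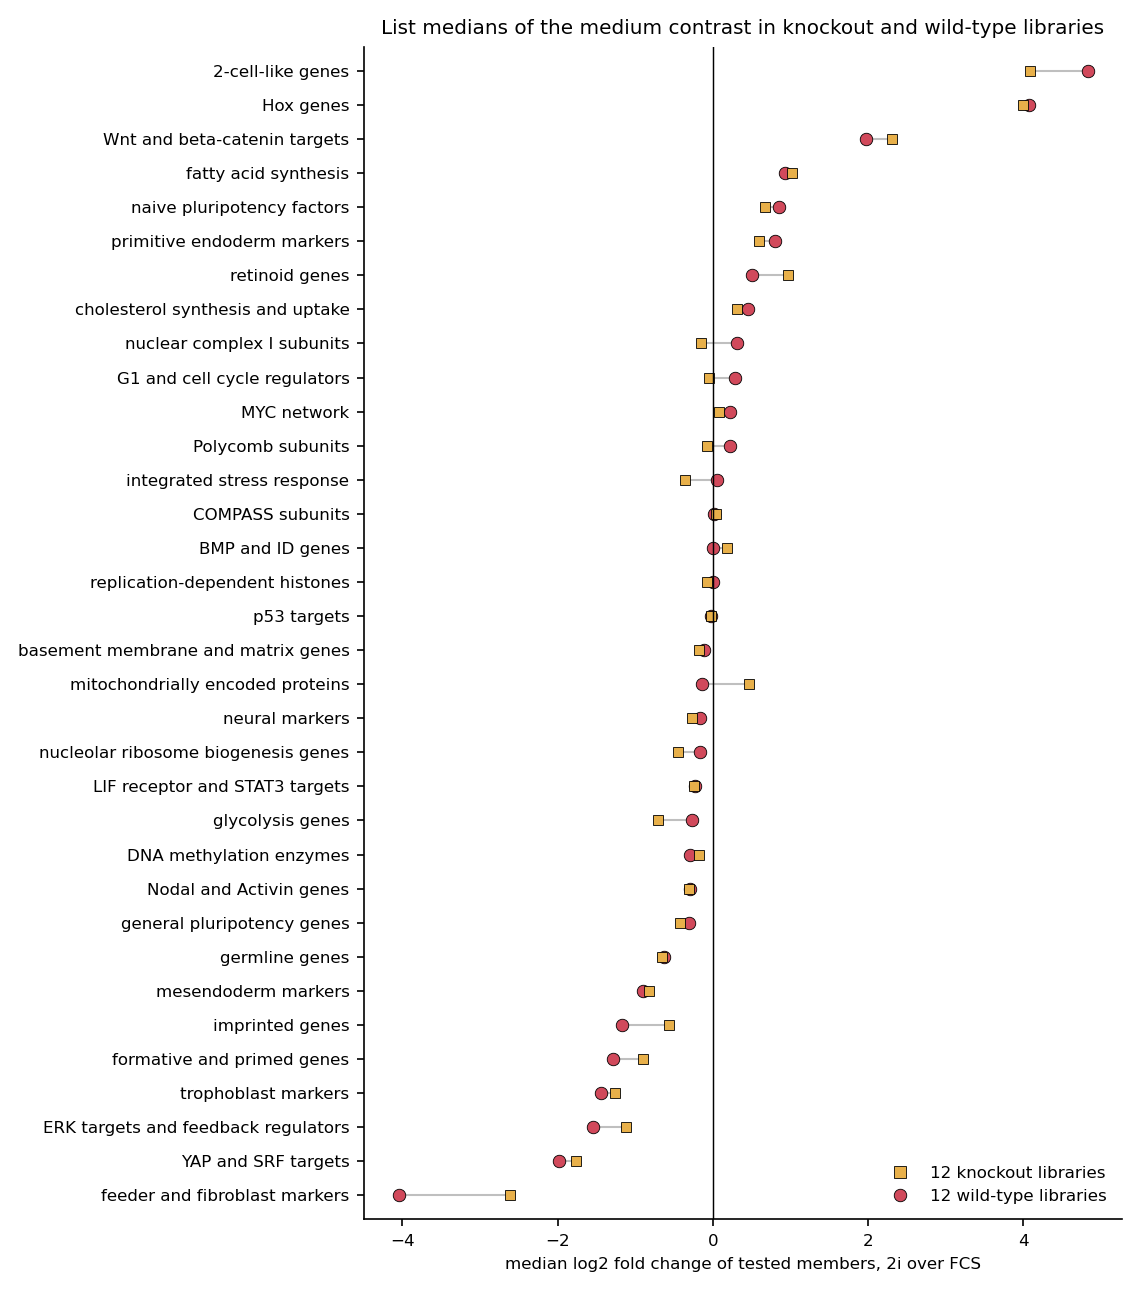
Median log2 fold change (2i over FCS) of each gene list in the 12 knockout libraries (squares) and the 12 wild-type libraries (circles). Hox genes (4.00 in knockouts and 4.07 in wild type) and ERK targets (-1.12 in knockouts and -1.55 in wild type) lie on the same side of 0 in both, and complex I subunits (-0.16 in knockouts and 0.31 in wild type) on opposite sides.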

How the data were processed

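RNA of mouse ESC was extracted with Trizol, selected for poly(A) and made into strand-specific libraries, per the labels' protocols. Reads were aligned with GSNAP to GRCm38/mm10, per the submitters' processing notes. The deposited table holds raw counts per gene made by the authors with featureCounts v1.5.2, reverse stranded, over the genes of Ensembl 87, keeping only primary alignments and requiring mapping quality 1 or more, per the file headers. For read trimming and duplicates the sources used here give nothing.

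The 92 spike-in lines, which held 0 counts, were left out, which left 49671 genes, of which 345 had no symbol in the GENCODE M21 names used. Genes were filtered with filterByExpr (minimum count 10), scaled by TMM and tested with edgeR 4.0.16 (quasi-likelihood F test, Benjamini-Hochberg adjustment) in R 4.3.3. The model held line and medium over the 12 wild-type libraries, with 8 residual degrees of freedom. Effects per line and the line by medium interaction came from a fit with 1 mean per line and medium (6 residual degrees of freedom), and the 12 knockout libraries were fitted like the wild type. CPM are counts over the library's total on the genes that passed the filter, multiplied by its TMM factor. That factor ran from 0.872 in 2i Mll2 replicate 2 to 1.07 in FCS Setd1a replicate 2. The 12 totals on all genes ran from 28314024 to 40591108, so 10 counts are less than 1 CPM in each library. The fits were tested on simulated data with known changes. Promoter sequences are from RefSeq (GRCm38.p6).

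The comparison and its 35 gene lists were chosen with earlier results of these data known. Named genes are the targeted genes, the 12 highest and 12 lowest without overlap and of at least 10 CPM, the 4 members of each list with the smallest adjusted p, members whose lack of a call a sentence turns on, and the 6 smallest interaction p-values, and some that pass are not reported here. Alternatives were another scaling (RLE), other filters, DESeq2 1.42.0, limma-voom 3.58.1, removal of mitochondrial genes, a replicate block, all 36 libraries, no line term and single libraries or lines left out.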

Additional observations from a re-analysis of the deposited data

Results flagged for a closer look

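Of 326 groups of 6 libraries examined, 50 (15.3%) held a library whose gap to the nearest other exceeded Dixon's critical value at the 95% level, which chance gives for about 1 in 20 groups. In 2i Mll2 replicate 2, 13 were flagged, in CPM: Aurkc 93.0, Bod1l 253, Klf2 556, Cnn2 17.9, Mycn 129, Perp 16.9, Ndufv2 329, Ndufs8 101, Ndufa6 116, Nanog 1323, Pou5f1 950 and Sox2 680 were above the other 2i libraries, and Dnmt1 was below them at 274. In 2i Bod1L replicate 1, Otx2 (5.68 CPM), Pdgfrb (33.8 CPM), T (18.7 CPM) and the share of counts from X-linked genes (4.62%) were high and Dnmt3b (27.6 CPM) was low. Hnf4a (80.8 CPM), Hoxa7 (114 CPM), Lin28a (84.6 CPM), Id2 (5.95 CPM) and Lhx1 (0.340 CPM) stood above in 2i Mll2 replicate 1. Single genes were high in the other 2i libraries: Bhmt (77.1 CPM) in Bod1L replicate 2, Magel2 (0.873 CPM) in Setd1a replicate 1 and Dusp4 (3.67 CPM) in Setd1a replicate 2.

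In FCS Mll2 replicate 1, Tnni1 (1.23 CPM), Trpm1 (5.92 CPM), Tfcp2l1 (1064 CPM), Nanog (1052 CPM), Ebp (57.6 CPM), Fdft1 (85.8 CPM), Rarb (0.521 CPM) and Map2 (48.2 CPM) were high and Snrpn (44.3 CPM) was low. In FCS Bod1L replicate 1, Cdx1 (1.60 CPM), Tlx2 (0.291 CPM), Tagln (406 CPM), Thbs1 (328 CPM), Ccn4 (43.1 CPM), Axin2 (49.2 CPM), Dhrs3 (1.17 CPM), Hand1 (32.5 CPM), Gata6 (1.75 CPM) and Sp5 (40.7 CPM) were high. Enpp2 (46.7 CPM) and Car4 (48.3 CPM) were high and Parm1 (4.13 CPM) was low in FCS Setd1a replicate 1. Fbxo15 (214 CPM) was high in FCS Bod1L replicate 2 and Postn (10.6 CPM) in FCS Setd1a replicate 2.

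The medium effect differed between lines by the interaction test, with an adjusted p of 0.0488 each, for Id1, Id3, Parm1, Myom2, T and Rerg.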

How the results depend on the processing

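Counts of higher and lower genes in wild type moved by less than 1.5 times with RLE scaling, no filter, DESeq2, limma-voom, mitochondrial or sex-linked genes removed, all 36 libraries, no line term, the Setd1a replicates as separate lines, or both doubted Mll2 libraries left out. The stricter filter gave 1875 higher and 1683 lower, with fewer genes tested. With the Bod1L line left out, 1684 were higher and 1595 lower, and with the Setd1a line left out, 1419 and 1657, with fewer libraries. Leaving out single libraries gave 2267 to 2978 higher and 2127 to 2909 lower in wild type, and 2589 to 3281 higher and 2442 to 3315 lower in knockouts. The differences in share of counts (2i minus FCS) were then -0.57 to -0.272 percentage points for mitochondrially encoded, -0.991 to -0.374 for X-linked and -1.03 to -0.601 for the 100 most abundant genes.

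Calls within single lines rest on 2 libraries per medium. In the Bod1L line 1292 genes were higher and 1521 lower in 2i, with ranges of 362 to 1803 and 639 to 2026 over single libraries left out, 1982 higher with no filter, and 855 higher and 925 lower with the stricter filter. In the Mll2 line 1275 were higher and 1473 lower, with ranges of 409 to 2391 and 790 to 2368, 2000 and 2355 with no filter, 839 and 901 with the stricter filter, 1913 higher with DESeq2, and 591 and 621 with both doubted Mll2 libraries left out. In the Setd1a line 1016 were higher and 654 lower, with ranges of 244 to 1427 and 67 to 1027, 1862 and 1318 with no filter, 664 higher with the stricter filter, 1579 and 1135 with DESeq2, and 998 lower with both doubted Mll2 libraries left out. The 11 interaction calls became 0 with RLE scaling, limma-voom or mitochondrial genes removed, 1907 with no filter, 983 with DESeq2, 2 with both doubted libraries left out and 0 to 631 over single libraries left out. The cause was not tested.

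Replicate numbers were not taken as pairs, since the correlation of replicate differences between 2i and FCS was not above 0.1 in every line: it was -0.146 in the Bod1L line, 0.0506 in the Mll2 line and 0.273 in the Setd1a line. In the Setd1a line the Y-linked counts went with the replicate number in both media. With the replicate block 2522 genes were higher and 2272 lower in wild type, 2443 and 2260 in knockouts, and 5 had an interaction.

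Of 155 genes whose fold change is reported, 142 were called, and 40 of these lost the call under at least 1 alternative. For 26 of the 40 this happened only with a whole line left out: the Bod1L line ended 27 calls, the Setd1a line 25 and the Mll2 line 8. Nanog, Tfcp2l1, Sp5, Srf and Zscan4c were among those lost with the Setd1a line left out. The other 14 lost it under other alternatives, 10 of them with a single library left out. Of the genes not called, 5 gained a call under at least 1 alternative: Id3 under 9, Gata6 under 4, Dnmt1 under 2, and Gata4 and Pdgfra under 1 each. Of 70 counts of list members, 47 moved by over 1.5 times under at least 1 alternative, and with the stricter filter 15 Hox genes were tested and higher. Under the alternatives 4 genes changed sign, none of them called. Over single libraries left out, Pou5f1 ranged from -0.215 to 0.005, Sox2 from -0.016 to 0.200, Zfp42 from -0.325 to 0.357 and Il6st from -0.027 to 0.288. Pou5f1 was 0.005 without FCS Bod1L replicate 2, 0.041 without the Bod1L line and 0.022 without the Setd1a line. Sox2 was -0.016 without 2i Mll2 replicate 2. Zfp42 was -0.325 without 2i Mll2 replicate 2, -0.112 without FCS Mll2 replicate 1, -0.426 without both and -0.117 without the Mll2 line. Il6st was -0.027 without 2i Bod1L replicate 2, -0.090 without the Bod1L line and -0.005 without the Setd1a line. Alternatives chosen after the data were seen were those that leave out whole lines, both doubted libraries or sex-linked genes, or split the Setd1a replicates. Genes near 0 in a medium rest on few counts.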

Other observations

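Long noncoding RNA genes were called higher more often than lower. Of 631 lincRNA genes tested, 18.2% were higher in 2i and 7.92% lower (median log2 fold change 0.17), and of 510 antisense genes, 14.5% were higher and 5.10% lower (median 0.08). The 15590 protein-coding genes were balanced, with 15.2% higher and 15.0% lower (median 0.02).

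Other motifs were sought in the same promoter windows of 3 lists. The E-box CACGTG was in 7.15% of all promoters, in those of Lef1 and Tnfrsf19 among 11 Wnt targets, Gbx2 and Klf4 among 10 naive factors, and Pim1 among 12 LIF genes. The octamer ATGCAAAT was in 1.74% of all promoters and in those of Cdx2, Zfp42 and Sbno2 in these lists. The STAT motif TTCCNGGAA was in 1.15% of all promoters and, in these lists, in those of Cish and Sbno2.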
